A study of Saccharomyces cerevisiae with 8 samples.

Results

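Stable unannotated transcripts (SUTs) are non-coding RNA polymerase II transcripts of budding yeast, and those described here lie away from chromosome ends. A SUT was included when the smaller of its distances to the 2 ends of its chromosome, with the last listed feature taken as the right end, was at least 30 kb, which held for 767 of the 847 SUTs in a table of 11436 features. The choice used position alone and no expression value.

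Total RNA of Saccharomyces cerevisiae W303, a standard laboratory background shared by all 4 strains, was sequenced from exponentially growing cells in 8 libraries, 2 per strain. The strains were wild type (WT), GPD-SIR3, which overexpresses SIR3, GPD-SIR3-A2Q, which overexpresses SIR3 carrying the A2Q point mutation, and SIR3Δ, which lacks SIR3. By their names both overexpressing strains use the constitutive GPD promoter. The labels give no mating type and do not say whether the pair of libraries of each strain was grown as 2 cultures. All p-values here are therefore about variation among the sequenced libraries, which may be technical.

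Sir3 is a nucleosome-binding subunit of the SIR complex, which silences genes next to telomeres and the silent mating-type cassettes HML and HMR. Many SUTs start in the nucleosome-free region in front of a gene and run away from it, or cross a gene on its other strand. They are distinguished from cryptic unstable transcripts (CUTs), which the nuclear exosome degrades, and from XUTs, which accumulate without the cytoplasmic exonuclease Xrn1. When the silent cassettes are expressed in a haploid cell, the a1-α2 repressor forms and haploid-specific genes are turned off, as in a diploid.

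Of the SUTs described here, 4 were lower in SIR3Δ than in WT. The 300 bases around the listed starts of 3 of them, each beside a named gene, are printed. The SUT350 window runs into the gene HPF1 and lies inside XUT1337, a longer transcript on its strand. Whether the windows act as promoters was not tested. Each runs 5′ to 3′ on the strand of the SUT, from 250 bases before its start to the first 50 bases of the transcript, and was read from the RefSeq R64 genome. SUT643 starts in chr10:607371-607670 (minus strand), SUT226 in chr11:114850-115149 (plus strand) and SUT350 in chr15:31415-31714 (plus strand). Capitals mark the letters ACCTCAA, a core of the recognition sequence of the repressor and activator Rme1, in SUT643, and the start codon of the gene HPF1, which reads CAT on this strand, in SUT350.
SUT643: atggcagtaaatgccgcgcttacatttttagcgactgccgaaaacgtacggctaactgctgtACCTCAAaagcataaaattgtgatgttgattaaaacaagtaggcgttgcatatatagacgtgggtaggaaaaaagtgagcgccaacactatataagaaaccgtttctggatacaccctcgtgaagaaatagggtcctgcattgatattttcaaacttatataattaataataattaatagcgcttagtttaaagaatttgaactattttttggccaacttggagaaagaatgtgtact
SUT226: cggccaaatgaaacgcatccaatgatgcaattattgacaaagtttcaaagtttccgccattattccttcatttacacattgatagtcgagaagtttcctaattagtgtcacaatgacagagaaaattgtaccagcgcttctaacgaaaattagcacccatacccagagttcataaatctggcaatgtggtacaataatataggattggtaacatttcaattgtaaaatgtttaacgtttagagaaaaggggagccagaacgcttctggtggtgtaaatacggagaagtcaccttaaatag
SUT350: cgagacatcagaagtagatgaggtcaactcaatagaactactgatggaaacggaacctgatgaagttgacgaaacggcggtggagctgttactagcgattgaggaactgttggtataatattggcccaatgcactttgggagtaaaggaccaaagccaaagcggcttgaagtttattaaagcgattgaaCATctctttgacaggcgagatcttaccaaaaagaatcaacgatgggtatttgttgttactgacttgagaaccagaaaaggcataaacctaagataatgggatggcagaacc
ACCTCAA was searched on both strands after the expression values had been seen. Its first base lies 188 bases upstream of the SUT643 start, and it occurs in 3.52% of the 767 SUT windows and in 3.95% of 5774 gene windows of the same length. The letters TATAAA, the TATA element, occurred in 38.5% of SUT windows and 44.6% of gene windows, and TTACCC, a core of the Reb1 site, in 15.3% and 16.0%. An operator pattern of the a1-α2 repressor, TGTNNNNNNNTACATCA, was found in 0 of the SUT windows and in 0.104% of gene windows, so the windows printed above do not contain it. The gene windows with it were those of HMLALPHA1, HMLALPHA2, MATALPHA1, MATALPHA2, NEJ1 and the gene named SUT2. Windows of haploid-specific genes such as RME1, FAR1 and AXL1 lacked it too. Its absence from the SUT windows therefore says little about the repressor. All motifs were counted on both strands, no motif contains another, and a match is a description of the sequence.

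The labels were checked first on SIR3 itself. Its scaled read count was 448 and 484 in WT, 10730 and 13865 in GPD-SIR3, 13132 and 13217 in GPD-SIR3-A2Q, and 39.1 and 36.8 in SIR3Δ. Total reads on genes ranged from 7006670 to 18077542 per library, and the SUTs received 22806 to 62086 reads per library, or 0.213% to 0.241% of all reads on listed features. HMRA1, the gene of the a1 protein inside the silent cassette HMR, had 0 reads in WT and in GPD-SIR3, whereas its scaled read count was 7.58 and 13.4 in GPD-SIR3-A2Q and 58.5 and 48.9 in SIR3Δ. All 5 tested α-specific mating genes were lower in GPD-SIR3-A2Q and in SIR3Δ than in WT, and of 12 tested haploid-specific genes 9 and 10 were lower, by the limma test described next. Of all tested features, 0.444% and 0.841% were called lower in these strains. The part of this mating-type state in the SUT changes reported below was not tested.

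Values are read counts that the authors scaled so that genes sum to the same total in every library. Fold changes are differences of log2(value + 1), which understates the change of low transcripts, from 1 limma fit over 8566 genes and non-coding transcripts, and a call means an adjusted p below 0.05. With 2 libraries a strain, an exact two-sided permutation test of a single value cannot go below p = 0.333, so no such test was used.

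SUTs away from the ends were short, weakly expressed and mostly placed against genes. Their median length was 713 bases (33 to 4913) and their median GC content 39.1%. Of the 767, 440 overlapped a gene on the other strand and 374 started within 500 bases of the start of a gene read in the opposite direction, at a median distance of 262 bases. Split into exclusive classes, 251 were antisense only, 187 both antisense and divergent, 185 divergent only and 133 neither. The remaining 11 overlapped a gene on their own strand.

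Antisense SUTs were the longer ones. The median length was 1025 bases for antisense SUTs, 969 for SUTs both antisense and divergent, 393 for divergent SUTs and 505 for those with neither relation. An antisense SUT covered a median of 74.3% of the gene opposite it, and one that was also divergent covered 85.9% of the gene opposite it. Per length the classes were alike in level, with medians of 19.2, 20.8, 24.3 and 28.4 scaled reads per kb in that order. The 11 SUTs on the strand of a gene had a median of 132 scaled reads per kb, and their reads cannot be told apart from those of the gene.

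Of these 11, 8 were among the 33 SUTs on chromosome XI that start at or past 200 kb, whereas 0 of the 15 SUTs before that point on chromosome XI and 3 of the 719 on other chromosomes overlapped a gene in this way. Whether the SUT positions listed there are displaced from the gene coordinates was not tested. SUT226 lies before it, at 115 kb. Of the 767 SUTs, 529 overlap an XUT on the same strand, so a SUT and an XUT may share reads. How many reads they share was not counted, but called SUTs described below changed much as an XUT over them did. In SIR3Δ against WT the fitted differences were -4.17 for SUT226 and -3.85 for XUT0912, and -3.69 for both SUT643 and XUT0892. They were -2.17 for SUT421 and -2.19 for XUT1517, and -1.95 for SUT350 and -2.28 for XUT1337. In GPD-SIR3 against WT, SUT632 gave -1.35 and XUT0878 -1.34. Changes of these SUTs cannot be told apart from changes of the XUTs.

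The median level was 22.9 scaled reads per kb, against 17.5 for the 80 SUTs within 30 kb of an end, 13.3 for 1408 XUTs, 9.52 for 886 CUTs and 213 for 5394 genes, all but the first group of 80 at least 30 kb from an end. In the middle 50% of SUTs the level ran from 11.9 to 39.3 per kb. Across libraries the median SUT had a scaled count of 15.2 to 18.2. No library stood apart in the summed SUT level, which ran from 21609 in GPD-SIR3-A2Q 1 to 24397 in WT 1.

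**Figure D1:**
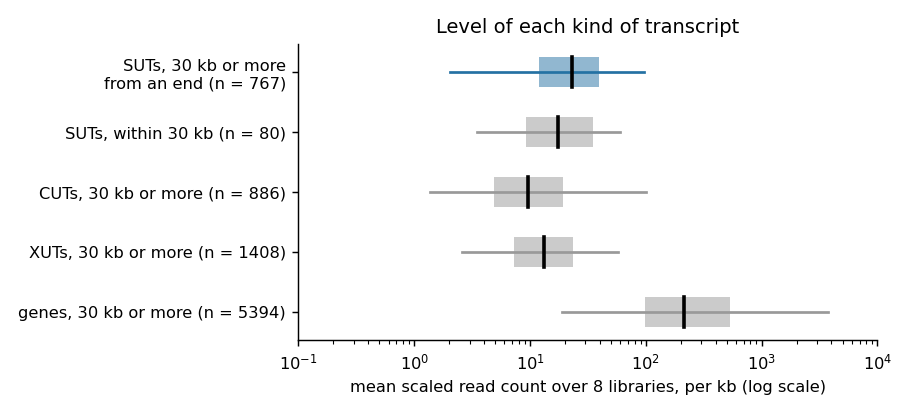
Mean scaled read count over 8 libraries per kb of transcript on a log axis, for SUTs, CUTs, XUTs and genes; boxes span the 25th to 75th percentile, black lines are medians and thin lines span the 5th to 95th percentile. The SUT median of 22.9 lies above those of XUTs (13.3) and CUTs (9.52) and below that of genes (213).

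A value was tested when at least 2 libraries reached 10, which 572 of the 767 SUTs did. Of the 195 that did not, 17 had no read in any library. Reads in all 8 libraries were found for 673 SUTs, a value of at least 10 in all 8 for 365, a mean of at least 50 for 126 and a mean of at least 200 for 8. Only 10 tested SUTs had passed through both libraries of a single strain and no other library. Of the 767, 2 shared more than 10% of their 50-base stretches with other places of the genome.

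The 10 SUTs with the highest level per kb included 5 on the strand of a gene. SUT673 overlaps YET1 and had 1294 scaled reads per kb, SUT143 overlaps TNA1 and had 790, SUT677 overlaps NFU1 and had 359, SUT682 overlaps FMP46 and had 349, and SUT681 overlaps SHB17 and had 306. All of these except SUT143 lie in the stretch of chromosome XI named above. The other 5 were SUT298 next to SEC59 (307 per kb), SUT355 next to MCH4 (290), SUT645 next to ADO1 (268), SUT350 next to HPF1 (249) and SUT328 with neither relation to a gene (223). Neither SUT298, SUT355, SUT645 nor SUT328 was called in any comparison.

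At the limit of 30 kb, the SUTs just inside were SUT286 at 30.2 kb, SUT195 at 30.3 kb and SUT083 at 30.7 kb, with means over 8 libraries of 4.43, 39.8 and 10.7. Just outside were SUT715 at 29.9 kb, SUT146 at 29.8 kb and SUT601 at 28.5 kb, with means of 11.7, 5.12 and 12.9.

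Low counts set how small a change could be seen. In WT, the 2 libraries differed by a median of 0.55 on the log2(value + 1) scale for the 259 SUTs with a mean under 10, by 0.37 for 382 SUTs between 10 and 50, by 0.29 for 118 between 50 and 200, and by 0.16 for the 8 above. The median standard error of a fitted difference was 0.60, 0.40, 0.25 and 0.16 for the tested SUTs of these levels. The interval around a difference in the weaker SUTs was therefore wide.

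**Figure D2:**
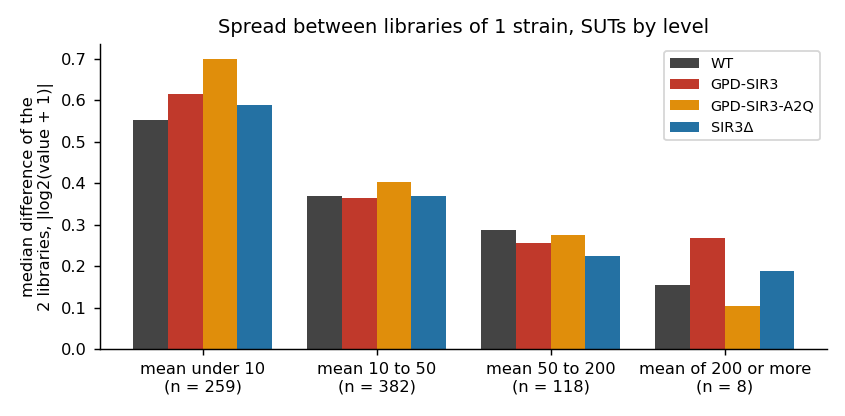
Median absolute difference between the 2 libraries of each strain, on the log2(value + 1) scale, for SUTs grouped by their mean scaled read count over 8 libraries. In WT it falls from 0.55 in SUTs with a mean under 10 to 0.16 in those of 200 or more.

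Most SUTs away from the ends were not called in any of the 5 comparisons, and 6 SUTs account for every limma call. In GPD-SIR3 against WT, 2 of the 572 tested SUTs were called, both lower, where 1.55% of all 8566 features were called and 1.39% were lower. In GPD-SIR3-A2Q against WT 2 were called, both lower, where 0.537% of all features were called and 0.444% were lower. In SIR3Δ against WT 4 were called, all lower, where 0.981% of all features were called and 0.841% were lower. The shares of tested SUTs called were 0.350%, 0.350% and 0.699%, while the rates over all features include those near chromosome ends. At least 30 kb from an end, 0.557%, 0.633% and 0.864% of tested genes were called in the same order. The shares were 0.135%, 0.135% and 1.62% for XUTs, and 0%, 0% and 0.392% for CUTs. With so few called SUTs, differences between these kinds of transcripts were not tested.

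Between the overexpressing strains, GPD-SIR3 was higher than GPD-SIR3-A2Q in 2 SUTs and lower in 1, where 1.81% of features were called, 0.49% higher and 1.32% lower. In GPD-SIR3-A2Q against SIR3Δ the limma fit called 0 SUTs, where 0.514% of features were called. At an unadjusted p below 0.05, limma found 41 of the 572 there, where 6.6% of all features passed. edgeR and limma-voom called 0 SUTs, where they called 0.572% and 0.502% of features, and DESeq2 called 1, SUT643, where it called 0.996%.

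In the 4 comparisons with calls, the other tools called 1 to 7 SUTs. DESeq2 called 4, 3 and 7 SUTs in the comparisons with WT, in the order used above, and 7 between the overexpressing strains, where it called 2.45%, 1.12%, 1.39% and 2.61% of features. edgeR called 2, 2, 4 and 3 SUTs, where it called 1.51%, 0.572%, 0.957% and 1.72% of features. limma-voom called 1, 2, 4 and 2 SUTs, where it called 1.2%, 0.584%, 0.992% and 1.51%. Its 1 call in GPD-SIR3 against WT was SUT268, which was higher, and neither SUT that limma called there. At an unadjusted p below 0.05 limma found 45, 41, 34 and 50 SUTs, where 9.04%, 7.09%, 7.61% and 10.5% of features passed.

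The typical SUT was level across strains. Median fitted differences of the 572 were -0.04 for GPD-SIR3, -0.06 for GPD-SIR3-A2Q and 0.01 for SIR3Δ against WT, beside 0.02, -0.03 and -0.05 over all features. For GPD-SIR3 against GPD-SIR3-A2Q the median was -0.01, and for GPD-SIR3-A2Q against SIR3Δ it was -0.05. A fitted difference of at least 2-fold was seen in 30, 29, 31, 34 and 30 SUTs in these 5 comparisons, where 5.25%, 4.35%, 3.83%, 6.02% and 3.49% of all features differed that much. Groups that did not overlap were found for 210, 209, 218, 227 and 224 SUTs, where 35.2%, 38.8%, 39.1%, 40.5% and 38.4% of all features had them.

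**Figure D3:**
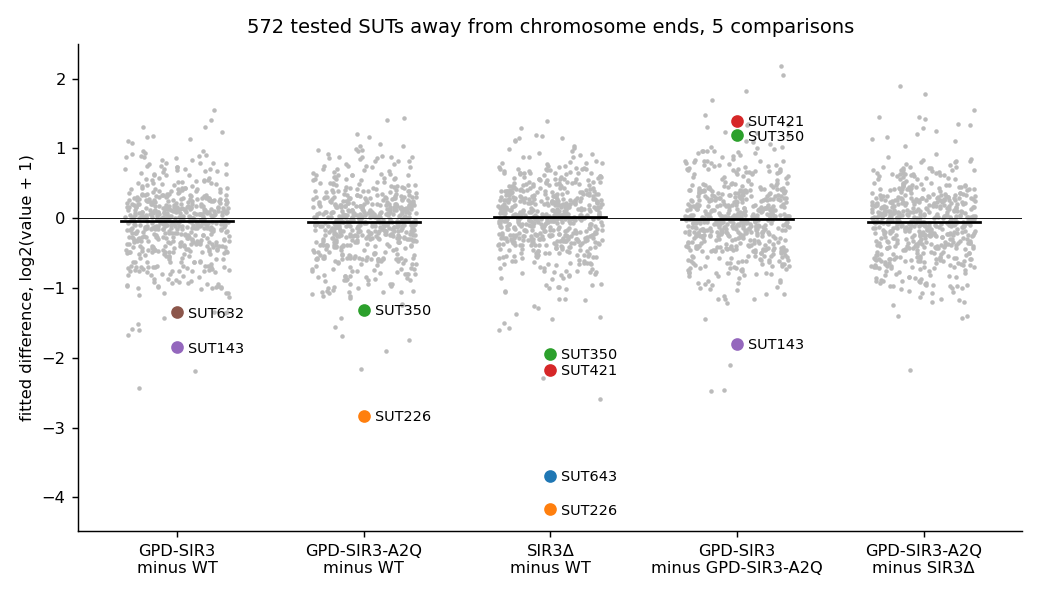
Fitted difference on the log2(value + 1) scale for the 572 tested SUTs in 5 comparisons; each grey point is a SUT, black lines are medians and named coloured points are SUTs with an adjusted p below 0.05. Medians lie between -0.06 and 0.01, and the called SUTs in SIR3Δ minus WT lie between -4.17 and -1.95.

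Of SUTs within 30 kb of an end, 16 of the 63 tested were lower in GPD-SIR3 than in WT, or 25.4%, with a median of -0.80 over the 63, beside 2 of 572 and -0.04 for SUTs away from the ends. The difference between the 2 position groups was not tested.

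SUT643 covers the RNA known as IRT1, which is transcribed through the promoter of IME1, the master gene of meiotic entry, and is known to hold IME1 down when Rme1 drives it. It lies on chromosome X at 605932-607420 on the minus strand, upstream of IME1 (604569-605651, same strand). Its scaled read count was 224 and 116 in WT, 137 and 143 in GPD-SIR3, 59.5 and 30.2 in GPD-SIR3-A2Q, and 19.4 and 6.78 in SIR3Δ. Both SIR3Δ libraries were below every other library, both GPD-SIR3-A2Q libraries lay between them and WT, and GPD-SIR3 fell within the range of WT. Against WT, SIR3Δ was lower by a log2 difference of -3.69 ± 0.50 (SE, limma adjusted p = 0.00748), the means being 170 ± 76.3 and 13.1 ± 8.91 (SD, n = 2), a 13-fold ratio. GPD-SIR3-A2Q against WT gave -1.91 ± 0.50 with a limma adjusted p of 0.305. DESeq2 called SUT643 there (adjusted p = 0.000779) and also between the overexpressing strains, higher in GPD-SIR3 (adjusted p = 0.0066), where limma gave 1.70 ± 0.50 and an adjusted p of 0.197. The SIR3Δ call was lost in 1 of 20 alternatives, without library WT 1, where the limma adjusted p was 0.0769.

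IME1 itself was near the limit of counting. Its scaled read count was 8.21 and 4.70 in WT, 5.40 and 14.0 in GPD-SIR3, 17.5 and 9.39 in GPD-SIR3-A2Q, and 10.1 and 14.5 in SIR3Δ. Its SIR3Δ libraries were above both WT libraries, and the fitted difference of 0.86 ± 0.57 was not called (limma adjusted p = 0.811). RME1, the gene of the Rme1 regulator and one of the haploid-specific genes, had 587 and 554 in WT, 477 and 611 in GPD-SIR3, 139 and 190 in GPD-SIR3-A2Q, and 38.8 and 48.4 in SIR3Δ. It was lower than in WT by -1.80 ± 0.21 in GPD-SIR3-A2Q (limma adjusted p = 0.00505) and by -3.69 ± 0.21 in SIR3Δ (limma adjusted p = 1.48e-05). The first of these calls was lost without WT 1, WT 2 or GPD-SIR3-A2Q 1, with limma adjusted p of 0.0577, 0.0523 and 0.0672. The fitted SIR3Δ difference was -3.69 for both SUT643 and RME1, whereas in GPD-SIR3-A2Q against WT limma called RME1 and not SUT643. RME1 was chosen for this description after its values had been seen, and a link between the SUT and the gene was not tested.

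SUT226 runs away from STE3, which encodes the receptor for a-factor and is an α-specific gene. It lies on chromosome XI at 115100-115556 on the plus strand, and its start is 473 bases from that of STE3 (113215-114627, minus strand). Its scaled read count was 80.8 and 55.9 in WT, 22.9 and 29.0 in GPD-SIR3, 6.41 and 11.4 in GPD-SIR3-A2Q, and 3.88 and 1.94 in SIR3Δ. The 4 strains did not overlap and followed the order WT, GPD-SIR3, GPD-SIR3-A2Q, SIR3Δ. Means were 68.4 ± 17.7, 26.0 ± 4.28, 8.91 ± 3.53 and 2.91 ± 1.37 (SD, n = 2).

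Against WT, SUT226 was lower by -2.83 ± 0.45 in GPD-SIR3-A2Q (limma adjusted p = 0.0272) and by -4.17 ± 0.45 in SIR3Δ (limma adjusted p = 0.0016). In GPD-SIR3 the difference was -1.35 ± 0.45 and was not called (limma adjusted p = 0.335). The SIR3Δ call held in all 19 alternatives that could be fitted, with limma, edgeR or DESeq2 adjusted p up to 0.0328. The GPD-SIR3-A2Q call was lost in 8 of 20, among them those that left out the first or second WT library (limma adjusted p = 0.339 and 0.146), GPD-SIR3-A2Q library (0.232 and 0.0619) or GPD-SIR3 library (0.0572 and 0.0578).

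STE3 had a scaled read count of 2033 and 2287 in WT, 1709 and 1532 in GPD-SIR3, 233 and 283 in GPD-SIR3-A2Q, and 39.9 and 32.0 in SIR3Δ. Its groups did not overlap either and kept the same order. Its differences against WT were -0.41, -3.06 and -5.88 for the 3 strains in that order, the last 2 called at limma adjusted p of 4.35e-05 and 2.03e-07. The SUT and the gene therefore fell on both sides of 1 intergenic region, whose SUT side is printed above. The SUT also covers 2.29% of LST4 on the other strand.

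SUT350 had the highest mean scaled read count of the 6 called SUTs, not corrected for length, and moved opposite to its neighbour. It lies on chromosome XV at 31665-33257 on the plus strand, 31.7 kb from the left end and thus just inside the limit. Its start is 59 bases from that of HPF1 (28703-31606, minus strand), a cell wall mannoprotein gene. The scaled read count was 616 and 609 in WT, 500 and 632 in GPD-SIR3, 225 and 270 in GPD-SIR3-A2Q, and 174 and 144 in SIR3Δ. WT and GPD-SIR3 overlapped, GPD-SIR3-A2Q was below both, and SIR3Δ was lowest.

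Against WT, SUT350 was lower by -1.31 ± 0.17 in GPD-SIR3-A2Q (limma adjusted p = 0.0101) and by -1.95 ± 0.17 in SIR3Δ (limma adjusted p = 0.000373). GPD-SIR3 differed from WT by -0.12 ± 0.17 (limma adjusted p = 0.905) and was higher than GPD-SIR3-A2Q by 1.19 ± 0.17 (limma adjusted p = 0.00733). The SIR3Δ call held in all 20 alternatives. The call in GPD-SIR3-A2Q was lost without WT 1 (limma adjusted p = 0.0932), WT 2 (0.0943) or GPD-SIR3-A2Q 1 (0.131), and that between the overexpressing strains without GPD-SIR3 2 (0.0517) or GPD-SIR3-A2Q 1 (0.0767).

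HPF1 rose where SUT350 fell, and also in GPD-SIR3, where SUT350 was not called. Its scaled read count was 259 and 376 in WT, 827 and 1230 in GPD-SIR3, 1502 and 1673 in GPD-SIR3-A2Q, and 1904 and 1607 in SIR3Δ. All 6 libraries of the other strains were above both WT libraries. Its differences against WT were 1.69 ± 0.22, 2.34 ± 0.22 and 2.48 ± 0.22, called at limma adjusted p of 0.00536, 0.00148 and 0.000436. The first of these calls was lost when only the 2 strains compared entered the fit (limma adjusted p = 0.0562). SUT350 lies inside XUT1337, a longer transcript on its strand that starts at 29289 and so also crosses HPF1. XUT1337 had a mean of 352 in SIR3Δ, 704 in GPD-SIR3-A2Q, 1443 in GPD-SIR3 and 1697 in WT, so the SUT and the XUT share reads.

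SUT421 crosses the whole of YPR027C, an uncharacterized gene, on its other strand. It lies on the plus strand of chromosome XVI, 326 kb from the nearer end. The scaled read count was 54.0 and 55.9 in WT, 64.8 and 75 in GPD-SIR3, 26.2 and 25.5 in GPD-SIR3-A2Q, and 11.2 and 11.6 in SIR3Δ. No groups overlapped, with GPD-SIR3 highest and SIR3Δ lowest. SIR3Δ was lower than WT by -2.17 ± 0.26 (limma adjusted p = 0.00311), a 4.81-fold ratio of means, and this call held in all 19 alternatives that could be fitted.

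GPD-SIR3 was higher than GPD-SIR3-A2Q by 1.4 ± 0.26 in SUT421 (limma adjusted p = 0.0289), while GPD-SIR3-A2Q against WT gave -1.06 ± 0.26 and was not called (limma adjusted p = 0.226). The call between the overexpressing strains was lost whichever of the 8 libraries was left out, the limma adjusted p becoming 0.062 or 0.0633 when the first or second WT library was left out, 0.0856 or 0.203 for GPD-SIR3, 0.134 or 0.157 for GPD-SIR3-A2Q, and 0.0554 or 0.0564 for SIR3Δ. YPR027C had 10.4 and 5.88 in WT, 5.85 and 3 in GPD-SIR3, 14.0 and 13.4 in GPD-SIR3-A2Q, and 24.0 and 10.7 in SIR3Δ. Every library of GPD-SIR3-A2Q and SIR3Δ was above both WT libraries, and its SIR3Δ difference of 0.95 ± 0.55 was not called (limma adjusted p = 0.777).

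**Figure D4:**
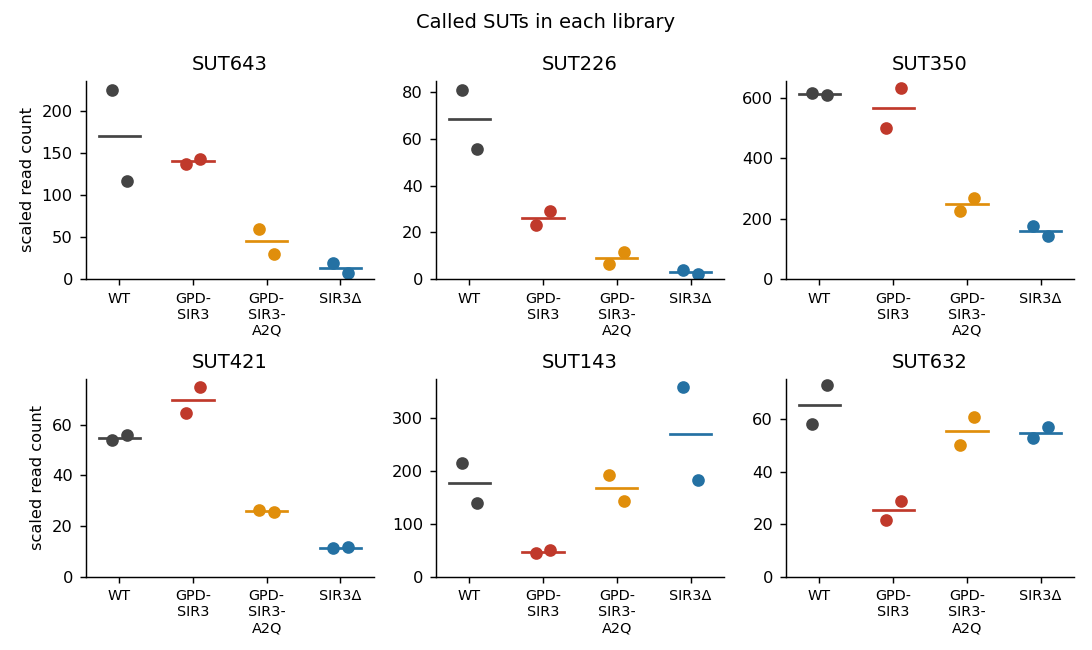
Scaled read count of the 6 called SUTs in each library, on linear axes that start at 0; points are the 2 libraries of a strain and lines their mean. SUT643, SUT226, SUT350 and SUT421 are lowest in SIR3Δ, and SUT143 and SUT632 are lowest in GPD-SIR3.

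The remaining 2 called SUTs were lowest in GPD-SIR3. SUT143 lies on chromosome VII at 1012282-1012490 on the plus strand and overlaps the first bases of TNA1 (1012485-1014089), the nicotinic acid permease gene, on the same strand. Its scaled read count was 214 and 139 in WT, 44.1 and 50.0 in GPD-SIR3, 192 and 144 in GPD-SIR3-A2Q, and 358 and 182 in SIR3Δ. The GPD-SIR3 libraries were below all 6 others, which overlapped between strains.

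GPD-SIR3 was lower than WT by -1.85 ± 0.33 (limma adjusted p = 0.0281) and lower than GPD-SIR3-A2Q by -1.80 ± 0.33 (limma adjusted p = 0.0282) in SUT143. Neither was called by limma-voom (adjusted p = 0.104 and 0.132). The first call was lost without WT 1 (limma adjusted p = 0.231), WT 2 (0.0537), GPD-SIR3 1 (0.145) or GPD-SIR3 2 (0.124). The second was lost when the first or second GPD-SIR3 library was left out (limma adjusted p = 0.116 and 0.121), and likewise for GPD-SIR3-A2Q (0.192 and 0.0893). TNA1 moved the same way, with 3137 and 2971 in WT, 1325 and 1517 in GPD-SIR3, 3122 and 2911 in GPD-SIR3-A2Q, and 4672 and 3466 in SIR3Δ. Its difference in GPD-SIR3 against WT was -1.11 ± 0.15 (limma adjusted p = 0.00605), lost without WT 1 (0.0533) or GPD-SIR3 1 (0.0551). Reads from a longer TNA1 transcript and from SUT143 cannot be told apart.

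SUT632 crosses 99.0% of IRC8, a gene of unknown molecular function, on its other strand. It lies on chromosome X at 339812-342260 on the minus strand and starts 262 bases from MTR4, which encodes the helicase that feeds RNA to the nuclear exosome. The scaled read count was 58.4 and 72.9 in WT, 21.6 and 29.0 in GPD-SIR3, 50.1 and 61.0 in GPD-SIR3-A2Q, and 52.7 and 57.2 in SIR3Δ. Both GPD-SIR3 libraries were below the other 6. GPD-SIR3 was lower than WT by -1.35 ± 0.26 (limma adjusted p = 0.0424).

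This call was lost in 13 of 20 alternatives, limma-voom among them (adjusted p = 0.0635). The limma adjusted p of SUT632 became 0.137 or 0.272 when the first or second WT library was left out, 0.174 or 0.0694 for GPD-SIR3, 0.0723 or 0.0718 for GPD-SIR3-A2Q, and 0.0853 or 0.0869 for SIR3Δ. IRC8, at 214 to 279 in WT and 253 to 333 in GPD-SIR3, differed by 0.25 ± 0.21 and was not called (limma adjusted p = 0.818). MTR4 differed by -0.28 ± 0.15 and was not called either (limma adjusted p = 0.653).

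Some SUTs came near a call or were called by another tool, and were chosen here after their values had been seen. SUT268, antisense to the diphthamide synthesis gene DPH5, had 18.6 and 33.5 in WT and 81.4 and 70.0 in GPD-SIR3, with 21.7 to 32.1 in the other 4 libraries. Its GPD-SIR3 libraries were above all others, by 1.56 ± 0.32 against WT (limma adjusted p = 0.0557), and DESeq2 gave an adjusted p of 0.00808, the alternatives running from 0.00808 to 0.351. DPH5 differed by -0.06 in the same comparison.

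SUT020, antisense to ICS2 and divergent from the chromosomal passenger gene SLI15, had 113 and 151 in WT, 110 and 168 in GPD-SIR3, 92.7 and 77.8 in GPD-SIR3-A2Q, and 53.9 and 51.3 in SIR3Δ. SIR3Δ was lowest, at -1.29 ± 0.25 against WT with a limma adjusted p of 0.0624, and DESeq2 gave an adjusted p of 0.00259, the lowest of a range up to 0.413 over the alternatives. ICS2 fell with it on the other strand, by -2.76 ± 0.42 in SIR3Δ (limma adjusted p = 0.0167). That call was lost without WT 1 (limma adjusted p = 0.151), WT 2 (0.0897), SIR3Δ 1 (0.0743) or SIR3Δ 2 (0.15).

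AMN1, an antagonist of mitotic exit downstream of SUT020 on the same strand, was lower in SIR3Δ as well, at 724 and 697 against 1754 and 1721 in WT, or -1.29 ± 0.10 (limma adjusted p = 0.000196). Its libraries of the 2 strains did not overlap. In SIR3Δ against WT the fitted difference was -1.29 in both AMN1 and SUT020, of which limma called only AMN1. In GPD-SIR3-A2Q against WT, AMN1 gave -0.86 and SUT020 -0.61 (limma adjusted p = 0.0068 and 0.687). That AMN1 call was lost in 4 of 20 alternatives. Between the overexpressing strains, with GPD-SIR3-A2Q as the reference, they gave 0.98 and 0.67 (limma adjusted p = 0.00107 and 0.383). A link between AMN1 and SUT020 was not tested.

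SUT209, antisense to the sterol-binding protein gene PRY1, had only 4 and 1 reads in GPD-SIR3 and 26 and 21 in WT. Its scaled read counts were 11.2 and 12.3 in WT, 1.80 and 1.00 in GPD-SIR3, 14.6 and 10.1 in GPD-SIR3-A2Q, and 6.59 and 11.6 in SIR3Δ. GPD-SIR3 was below all other libraries, and its difference of -2.43 ± 0.52 against WT was not called (limma adjusted p = 0.066).

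SUT204 and SUT836, the antisense SUTs next to mating genes, were not called where the genes opposite them fell. This says little, as only 0.350% of tested SUTs were called in GPD-SIR3-A2Q and 0.699% in SIR3Δ against WT. In SIR3Δ both were higher than in WT at an unadjusted limma p of 0.0473 (SUT204) and 0.0241 (SUT836), where 5.94% of tested SUTs were below 0.05. Within 1 kb of the α-specific and haploid-specific genes lay 3 of the SUTs, SUT226 next to STE3, SUT204 across FAR1 and SUT836 across AXL1. SUT204 covers all of FAR1, the inhibitor that arrests the cell cycle in response to pheromone. Its position is chromosome X at 123800-126464 on the plus strand. SUT204 had 351 and 224 in WT, 316 and 233 in GPD-SIR3, 368 and 376 in GPD-SIR3-A2Q, and 415 and 387 in SIR3Δ.

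FAR1 had 417 and 620 in WT, 502 and 553 in GPD-SIR3, 53.6 and 75.8 in GPD-SIR3-A2Q, and 24.4 and 26.2 in SIR3Δ. The gene was thus far lower in the latter 2 strains, by -2.98 ± 0.24 and -4.28 ± 0.24 against WT (limma adjusted p = 0.000561 and 1.48e-05). SUT204 was above both WT libraries in each of those libraries, but its differences of 0.41 ± 0.22 and 0.51 ± 0.22 were not called (limma adjusted p = 0.747 and 0.65). FAR1 fell 20.5-fold in SIR3Δ where SUT204 had higher values, so the 2 strands were counted apart here.

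SUT836 covers 91.8% of AXL1, a protease gene needed for a-factor maturation and for the axial budding of haploid cells. Its position is chromosome XVI at 781967-785375 on the minus strand. SUT836 had 40.6 and 46.5 in WT, 58.9 and 30 in GPD-SIR3, 58.9 and 79.1 in GPD-SIR3-A2Q, and 78.3 and 83.3 in SIR3Δ. AXL1 had 414 and 356, 440 and 351, 114 and 115, and 16.7 and 15.0 in the same libraries. AXL1 was lower by -1.74 ± 0.18 and -4.52 ± 0.18 in GPD-SIR3-A2Q and SIR3Δ (limma adjusted p = 0.00339 and 2.25e-06), while SUT836 differed by 0.64 ± 0.32 and 0.88 ± 0.32 and was not called (limma adjusted p = 0.736 and 0.549). The AXL1 call in GPD-SIR3-A2Q was lost without WT 1 (limma adjusted p = 0.0543) or GPD-SIR3-A2Q 1 (0.0557).

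Genes across from or beside SUTs were called in a few pairs. Over all features, limma called 0.981% in SIR3Δ against WT and 0.537% in GPD-SIR3-A2Q against WT. Whether the pair counts differ from these shares was not tested. In SIR3Δ against WT, 6 of the antisense pairs (317 with both partners tested) had a called gene, and in 0 of them was the SUT called by limma, where 0.699% of tested SUTs were called in this comparison, so that a count of 0 in 6 says little. These genes were ICS2, FAR1, AXL1, MPS3, ARG1 and REV1. The calls of FAR1 and AXL1 held whichever 1 library was left out, and the other 4 did not. Of 271 divergent pairs, 4 had a called gene, STE3, HPF1, FPR4 and REV1, and the SUT was called in 2, SUT226 and SUT350. The calls of STE3 and HPF1 likewise held without any 1 library, and those of FPR4 and REV1 did not. In GPD-SIR3-A2Q against WT the only called genes were FAR1 and AXL1 among antisense pairs and STE3 and HPF1 among divergent pairs, and again SUT226 and SUT350 were the called SUTs.

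In GPD-SIR3 against WT, MET10 and ARG1 were the called genes in antisense pairs, and KDX1, HPF1 and LEU9 in divergent pairs. None had a called SUT, where 0.350% of tested SUTs and 1.55% of all features were called. SUT768, antisense to the arginine synthesis gene ARG1, differed by 0.19 ± 0.22 where ARG1 differed by -1.25 ± 0.20 (limma adjusted p = 0.868 and 0.0172). The ARG1 call was lost without WT 2 (limma adjusted p = 0.127), GPD-SIR3 1 (0.116) or GPD-SIR3 2 (0.068). That of MET10 was lost without either WT library (limma adjusted p = 0.0623 and 0.237), either GPD-SIR3 library (0.142 and 0.183) or either GPD-SIR3-A2Q library (0.0708 and 0.0697). KDX1 kept its call only without GPD-SIR3 1, the limma adjusted p running up to 0.278 without WT 1. LEU9 lost its call whichever library was left out, with limma adjusted p from 0.0566 to 0.256, and by edgeR (adjusted p = 0.057) and limma-voom (adjusted p = 0.0506). Of these 5 genes only HPF1 was called whichever library was left out.

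Across the 317 antisense pairs, Pearson's r of the fitted differences of SUT and gene was -0.05, -0.13 and -0.19 in the 3 comparisons with WT, GPD-SIR3 first and SIR3Δ last. Spearman's rho of these pairs was -0.03, -0.11 and -0.27 in the same order. In SIR3Δ it was also -0.27 among the 82 antisense pairs whose SUT had a mean of at least 50. Across the 271 divergent pairs Pearson's r was 0.11, 0.15 and 0.35, and Spearman's rho in SIR3Δ was 0.04. Among the 44 divergent pairs whose SUT had a mean of at least 50, r in SIR3Δ was -0.49 and Spearman's rho -0.06. The ranks of divergent pairs thus show next to no relation in SIR3Δ, and the sign of r there rests on which pairs enter. Members of a pair share libraries and the WT samples, and the values are descriptions.

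**Figure D5:**
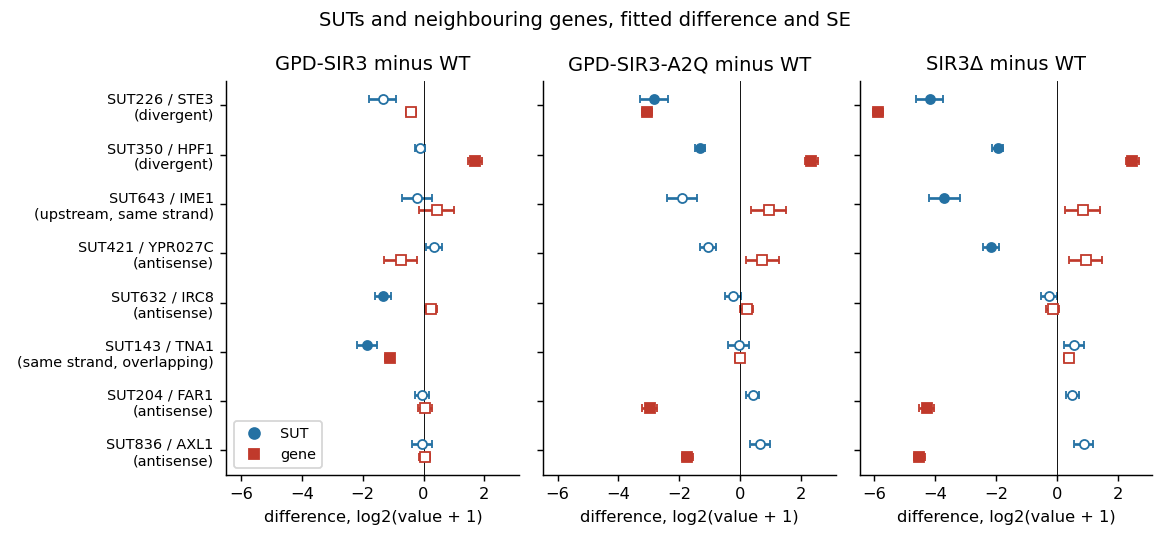
Fitted difference against WT on the log2(value + 1) scale with its SE for 8 SUTs (blue circles) and a gene next to or across each (red squares) in 3 strains; filled symbols have a limma adjusted p below 0.05. SUT226 and STE3 both fall in GPD-SIR3-A2Q and SIR3Δ, SUT350 and HPF1 move in opposite directions, and SUT204 and SUT836 are not called while FAR1 and AXL1 fall.

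Genes of RNA decay and of chromatin were measured as a list chosen for these transcripts. Of 62 tested genes of the nuclear exosome and its cofactors, early termination, cytoplasmic decay and chromatin factors that limit cryptic transcription, limma, edgeR, limma-voom and DESeq2 called 0 in each of the 5 comparisons, where limma called 0.514% to 1.81% of all features, so that 0 of 62 is near the background. At an unadjusted p below 0.05 limma found 1 of them in SIR3Δ, 2 in GPD-SIR3-A2Q and 3 in GPD-SIR3 against WT, 2 between the overexpressing strains and 4 in GPD-SIR3-A2Q against SIR3Δ. Over all features the shares at that p were 7.61%, 7.09%, 9.04%, 10.5% and 6.6% in the same order, and over the list they were 1.61%, 3.23%, 4.84%, 3.23% and 6.45%. Median differences against WT lay between -0.08 and 0.19 over the 4 lists.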

How the data were processed

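Total RNA was measured in 8 libraries, 2 for each of 4 strains, with the strain and number read from each title. Per the labels' protocols, phenol-chloroform RNA was broken with zinc, selected for size and turned into SOLiD total RNA libraries read from both ends. Per the submitters' processing notes, the aligner was TopHat 1.4.1 on build R64. How reads were counted, whether strand was used and how multiple matches were treated are things not given in the sources used here. The table deposited by the authors lists genes and non-coding transcripts. Its values for GPD-SIR3 2 are whole-number counts. In the other 7 libraries the values deposited by the authors are a signal which, from the values themselves, is read counts times 1 multiplier per library, with genes summing to 7006670 everywhere. Division by the smallest step gave, within 0.01 of a whole read, whole numbers for 100% of values. Another 16 columns of per-sample values were not used.

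The design allowed limma for scaled values, so limma 3.58.1 in R 4.3.3 (trend, two-sided) was fitted on log2(value + 1) to 5473 genes and 3093 non-coding transcripts that reached 10 in 2 or more libraries, with the 4 strains in 1 model, 4 residual degrees of freedom and Benjamini-Hochberg adjustment over all 8566. edgeR 4.0.16, DESeq2 1.42.0 and limma-voom on the recovered reads were alternatives. The limma step was also run on simulated counts with known changes. Recovery was not counted for SUTs or by level, so that run says nothing about SUTs in particular. Paired libraries of each strain differed beyond sampling noise (chi-square per degree of freedom over all features 41.8 for SIR3Δ, 31.6 for GPD-SIR3-A2Q, 69.3 for GPD-SIR3 and 89.8 for WT), so none was counted as a repeat of another. Over the SUTs alone the values were 4.2, 3.1, 2.9 and 4.5 in the same order. Read numbers give the depth, and they cover counting error only.

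Of 5775 nuclear genes, 5770 matched the RefSeq R64 annotation and 5738 had equal coordinates, so sequences were read from R64, counted from 1. The start sequence of SUT421 is not reported here. Named SUTs are, per comparison, up to 10 called in each direction whose mean reaches 10 and whose groups are separate, the 10 with the highest level per kb, and the 3 on each side of the 30 kb limit. Named genes are the neighbours of these SUTs and called members of the lists. Others are named as chosen after their values were seen, including the called genes of antisense and divergent pairs. The SUTs, lists and rules were chosen with earlier results of these data known.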

Additional observations from a re-analysis of the deposited data

How the results depend on the processing

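No called SUT changed direction under any alternative, but this was largely fixed in advance. The compared groups of every called SUT were separate, so leaving out 1 library could not reverse its sign. Alternatives that changed only the features or libraries used to estimate the spread left its fitted difference as it was. The count of SUTs called in GPD-SIR3 against WT, 2 as reported, was 1 without the filter (750 tested) and 0 with a mean of at least 50 (126 tested). It was 4 with non-coding transcripts fitted alone, 0 with only the 2 strains fitted, 4 with DESeq2 and 1 with limma-voom. In GPD-SIR3-A2Q against WT, also 2, it was 1 with a mean of at least 50, 0 with non-coding transcripts alone, 1 with only the 2 strains fitted and 1 at a distance of at least 50 kb, which leaves out SUT350. In SIR3Δ against WT, 4 as reported, it was 2 with a mean of at least 50 and 7 with DESeq2. Between GPD-SIR3 and GPD-SIR3-A2Q, 3 as reported, it was 1 with a mean of at least 50, 5 with non-coding transcripts alone and 7 with DESeq2, and between GPD-SIR3-A2Q and SIR3Δ, 0 as reported, it was 1 with DESeq2. The mean of at least 50 leaves out the weaker SUTs, and the causes of the other shifts were not tested. Shares of all features called were counted for edgeR, DESeq2 and limma-voom, as given above, and not for the other alternatives, including those without 1 library. For these, a shift in the SUTs cannot be told from a shift in the whole table. Leaving out 1 library gave 0 to 1, 0 to 2, 3 to 5, 0 to 2 and 0 to 0 calls in these 5 comparisons, where a strain left with 1 library is assumed to vary like the others. Scaling by TMM or median ratios and the other pseudocounts kept each count within 1.5 times the reported one, but with a pseudocount of 10 the 2 calls in GPD-SIR3 against WT shared only 1 with those reported, SUT268 (higher) being called and SUT632 not.

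No label says that a shared replicate number marks a shared culture or day, and 2 pairs are too few to tell, so the numbers were not taken to pair the libraries. Deviations of same-numbered libraries correlated at 0.04, -0.15, 0.58, 0.36 and 0.06 in the 5 comparisons, which share groups. With the replicate number as a block the counts were 2, 2, 4, 4 and 0, SUT643 being the added call between GPD-SIR3 and GPD-SIR3-A2Q. With the numbers crossed in GPD-SIR3-A2Q against WT, an alternative chosen after seeing the data, the count was 2. Depth limits the weaker SUTs, with a median of 3 to 10 reads per library for a mean under 10.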

Other observations

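Apart from the SUTs described above, several were near a call or were called by DESeq2 without being called by limma. They were chosen after their values had been seen, and are given as values. SUT534 lies 33.1 kb from an end of chromosome VII and crosses 90.1% of ZIP2, a gene of meiotic chromosome synapsis. It had 84.7 and 42.3 in WT, 40.9 and 50 in GPD-SIR3, 44.9 and 52.3 in GPD-SIR3-A2Q, and 26.4 and 17.4 in SIR3Δ, where both libraries were below all others. Its difference of -1.44 in SIR3Δ against WT had a limma adjusted p of 0.202, and of 19 alternatives 1 called it, with adjusted p from 0.0256 to 0.95.

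SUT065, which crosses all of MTH1, a gene of glucose-regulated transcription, was highest in SIR3Δ. It had 183 and 152 in WT, 161 and 162 in GPD-SIR3, 188 and 196 in GPD-SIR3-A2Q, and 315 and 235 in SIR3Δ. The difference of 0.70 against WT had a limma adjusted p of 0.212, and 1 of 20 alternatives called it, with adjusted p from 0.0457 to 0.711.

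SUT434, across the glutamate dehydrogenase gene GDH3, and SUT435, across the dehydrogenase gene BDH2, lie 31.5 and 33.1 kb from an end of chromosome I. SUT434 had 20.7 and 29 in GPD-SIR3 against 44.9 and 75.8 in GPD-SIR3-A2Q, and SUT435 had 56.7 and 62 against 101 and 140. GPD-SIR3 was below the other 6 libraries in both. The differences between these strains were -1.22 and -0.99, with limma adjusted p of 0.142 and 0.132. For each, 1 alternative made the call.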
